A study of Mus musculus with 32 samples.

Results

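Cytochrome P450 genes expressed in the mouse kidney were described in 32 kidneys from the labelled groups wildtype, PKD and PKD + Salsalate. A gene was included when its Ensembl identifier belonged to a protein-coding *Cyp* gene and 8 or more kidneys had more than 1 CPM (counts scaled to the library total) of it. *Cyp4a10*, *Cyp4a12a*, *Cyp4a14*, *Cyp51*, *Cyp24a1*, *Cyp27b1* and *Cyp26b1* were left out by name. The rule gave 36 genes of 20 subfamilies, out of 101 protein-coding P450 genes and 53700 genes in the table. Of the other P450 genes, 7 were those left out by name and 58 did not reach the level. The genes nearest the limit were *Cyp3a13*, over 1 CPM in 15 kidneys, on the inside, and *Cyp26a1* and *Cyp4f39*, each over 1 CPM in 5 kidneys, on the outside. Levels below are CPM after TMM scaling, which adjusts for differences in library composition, unless stated otherwise. Among the 20 subfamilies, 15 had 1 gene, and the others were Cyp2a with 2, Cyp2d with 4, Cyp2j with 7, Cyp4a with 2 and Cyp4f with 6 genes.

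All mice were C57BL/6 males of the line iKspCre-Pkd1del, which carries a tamoxifen-inducible Cre driven in kidney tubules by the Ksp-cadherin promoter and LoxP sites around exons 2 to 11 of *Pkd1*. The 12 PKD mice and the 12 PKD + Salsalate mice had received 150 mg/kg tamoxifen by gavage on postnatal days 18 and 19 and were 95 days old. The PKD + Salsalate mice were fed chow with 2.5 g/kg salsalate, a prodrug of salicylate, from day 81 for 2 weeks. The 8 wildtype mice carried the floxed alleles and the Cre without tamoxifen, and their labels give an age of 109 days, although the growth protocol names day 95 for every mouse. Age, tamoxifen and the *Pkd1* deletion therefore cannot be told apart in any comparison with wildtype. Homogenized kidney tissue was sequenced, so fewer cells of a type and less RNA per cell cannot be told apart either.

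Between 11193136 and 109807664 reads per kidney were counted on genes. Of the wildtype libraries, 5 (replicates 1 to 5) carry a name with a final R. No library of the PKD groups does, and what the letter stands for is not given in the labels. The other 3 wildtype libraries share the naming of the PKD libraries. Counts of genes that differed from wildtype in PKD kidneys are therefore also given against the 5 and against the 3 libraries. PKD kidney 10 held hepatocyte transcripts, with 4936 CPM summed over 14 hepatocyte markers against at most 163 in the kidneys other than PKD 10 and 12. PKD kidney 12 held adrenal transcripts, with 69.9 CPM over 6 cortex markers against at most 15.9 and 17.7 CPM over 5 medulla markers against at most 4.55. The markers of proximal tubule, the segment best known for P450 expression, were abundant in every kidney, with 11207 to 22146 CPM over 15 genes.

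P450 enzymes hold a heme group and insert 1 oxygen atom into their substrate with electrons that reach them from P450 reductase in the endoplasmic reticulum or from ferredoxin in mitochondria. In the kidney they are best known for turning arachidonic acid into epoxides, made by Cyp2c and Cyp2j enzymes, and into hydroxylated acids, made by Cyp4a and Cyp4f enzymes, lipids that act on vessel tone and salt transport. Other members hydroxylate steroids, oxysterols, vitamin D and drugs. Several of the genes are expressed mainly in the proximal tubule, and some of them more strongly in male than in female mice.

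Several P450 genes are recent copies of each other, which matters for how reads can be counted. *Cyp4a12b* shared 36.2% of the 100-base windows of its transcript with *Cyp4a12a*, which was left out by name. Among pairs with both genes described here, the most alike were *Cyp2a4*, a steroid hydroxylase, and *Cyp2a5*, a coumarin hydroxylase. Their longest open reading frames were identical at 1459 of 1482 aligned bases (98.4%), and 14.2% of the 100-base windows of the *Cyp2a5* transcript and 11.2% of those of *Cyp2a4* also occurred in another gene, mainly in each other. The genes lie on the plus strand of chromosome 7, at chr7:26006594-26014513 and chr7:26534730-26542973 of GRCm39. The 250 bases before their start sites are shown because the pair differed in its response while being nearly identical here. The sequences are from RefSeq (GRCm38.p6, plus strand, chr7:26306942-26307191 for *Cyp2a4* and chr7:26835089-26835338 for *Cyp2a5*), are written 5′ to 3′, and were identical in 245 of 251 alignment columns. Capitals mark the 4 bases that differ and the 1 base at an end of each window that has no partner.
Cyp2a4: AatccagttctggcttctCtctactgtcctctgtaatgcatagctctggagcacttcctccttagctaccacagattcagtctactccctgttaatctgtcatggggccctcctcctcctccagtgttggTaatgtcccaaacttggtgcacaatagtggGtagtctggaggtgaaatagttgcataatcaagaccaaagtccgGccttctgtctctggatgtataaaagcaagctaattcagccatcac
Cyp2a5: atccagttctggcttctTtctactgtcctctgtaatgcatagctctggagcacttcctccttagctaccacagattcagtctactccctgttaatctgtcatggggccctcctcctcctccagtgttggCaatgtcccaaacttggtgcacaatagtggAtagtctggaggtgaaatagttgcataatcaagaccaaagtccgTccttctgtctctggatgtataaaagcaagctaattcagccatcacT
The differences between the windows are single bases spread over their length.

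*Cyp1b1*, which hydroxylates estrogens and polycyclic hydrocarbons, is a textbook target of the aryl hydrocarbon receptor, whose binding motif has the core GCGTG. Its upstream window (RefSeq GRCm38.p6, minus strand, chr17:79715062-79715311) held 1 match, shown in capitals as CACGC, which is the core read on the other strand.
Cyp1b1: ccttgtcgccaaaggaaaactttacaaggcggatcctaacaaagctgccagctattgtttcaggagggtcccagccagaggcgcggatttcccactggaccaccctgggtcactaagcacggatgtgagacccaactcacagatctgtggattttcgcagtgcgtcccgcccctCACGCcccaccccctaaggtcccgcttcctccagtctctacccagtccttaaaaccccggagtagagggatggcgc
Of the 32851 windows of the same length in the table, 28.2% held the core on either strand. *Cyp2a4* and *Cyp2a5* had no match in their windows. In all, 26 of the 36 genes had an entry among these windows. The core was not particular to *Cyp1b1*: *Cyp46a1* had 4 matches and *Cyp20a1* had 2. *Cyp2j9*, *Cyp2j13*, *Cyp4f14*, *Cyp4f16* and *Cyp4v3* had a window with 1 match, and the rest of the 26 had none.

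The level of the 36 genes spanned more than 3 orders of magnitude per length of exon. *Cyp2e1*, an enzyme that oxidizes ethanol, acetone and other small molecules, was the most abundant in PKD kidneys with a mean of 464 CPM per kb. It was followed by *Cyp4b1* (288 CPM per kb), a hydroxylase of medium-chain fatty acids, *Cyp2a4* (234), *Cyp2a5* (225) and *Cyp2j5* (163), the epoxygenase long known from mouse kidney. Below these came *Cyp2d26* (78.8), *Cyp2d9* (69.5), *Cyp4a31* (66.1), *Cyp2j11* (46.4) and *Cyp2j13* (44.0). In the plot of levels the lines of *Cyp2a4* and *Cyp2a5* overlap in PKD kidneys, and so do those of *Cyp2d26*, *Cyp2d9* and *Cyp4a31*, so these neighbours were not separated by the spread between kidneys. In wildtype kidneys *Cyp2a4* had 291 and *Cyp2a5* 112 CPM per kb. The lowest means in PKD kidneys were those of *Cyp2r1* (0.327 CPM per kb) and *Cyp4f14* (0.266).

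**Figure D1:**
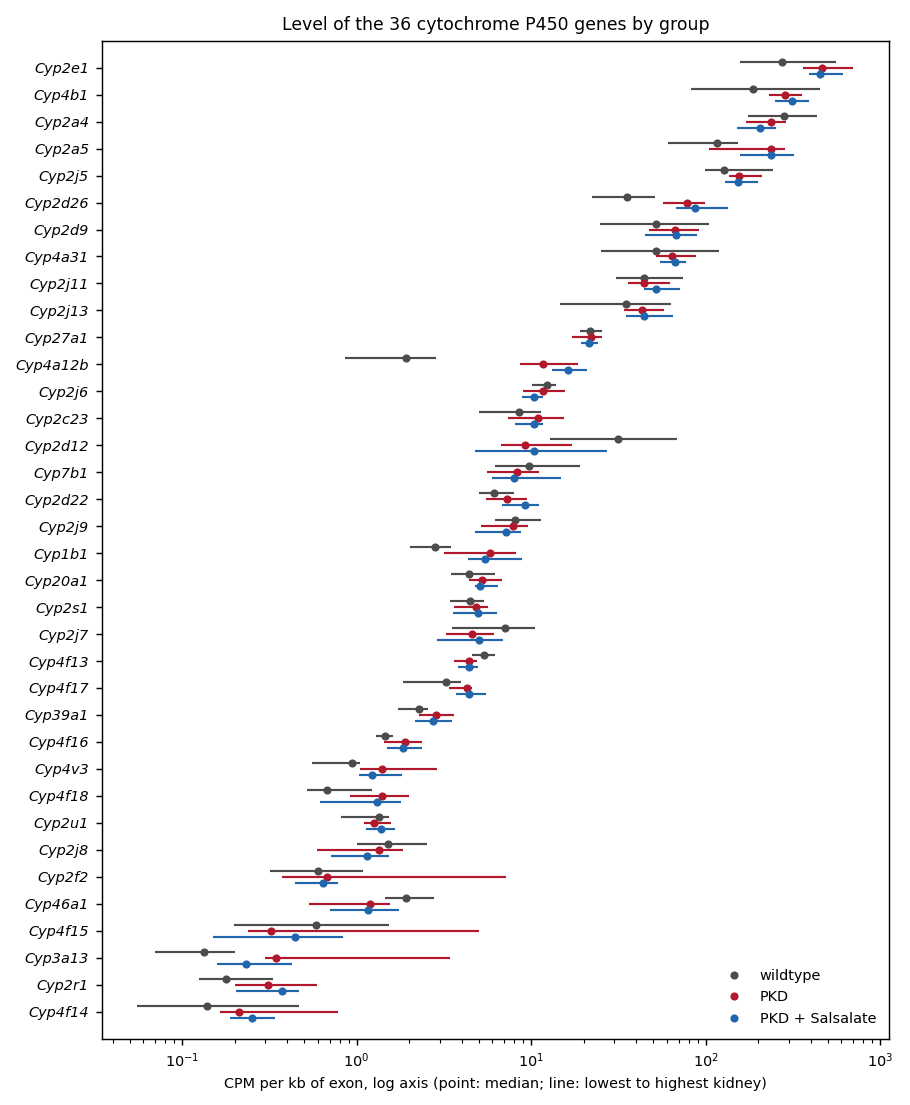
Level of the 36 cytochrome P450 genes in CPM per kb of exon on a log axis, with the median as a point and the lowest to highest kidney as a line, for wildtype (n = 8), PKD (n = 12) and PKD + Salsalate (n = 12). *Cyp2e1* leads with a PKD mean of 464 CPM per kb, *Cyp4a12b* is the gene whose wildtype line lies farthest below its PKD lines, and *Cyp2f2*, *Cyp4f15* and *Cyp3a13* have long PKD lines that end at PKD kidney 10.

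The summed level of the 36 genes was 5397 ± 2215 CPM (SD) over the 8 wildtype kidneys. Both PKD groups, of 12 kidneys each, had higher and less variable sums, 6504 ± 938 without and 6721 ± 799 with salsalate. Within the wildtype group the sum ran from 3121 to 4943 CPM in the 5 libraries with names ending in R and from 6775 to 9214 in the other 3, so these sets did not overlap and the PKD range of 5046 to 8238 lay above the first and across the second. The median coefficient of variation over the 32 genes tested was 30.4% in wildtype, 16.9% in PKD and 15.3% in PKD + Salsalate kidneys. For 15 of the 32 genes the 2 wildtype sets did not overlap, 13 with the R libraries lower and 2 with them higher, where 43.8% of all tested genes had sets that did not overlap. The proximal tubule markers moved in the same way, with 11207 to 14927 CPM over 15 genes in the R libraries and 18573 to 22146 in the other 3, and with all R libraries lower for 9 of the 15. Their part in the P450 levels was not tested.

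PKD and wildtype kidneys were compared first, to see which P450 genes differed after deletion of *Pkd1*. Of the 36 genes, 32 passed the filter of the fit, which required a log2 CPM over 1 in 25% or more of the kidneys. By edgeR's quasi-likelihood test, 19 of the 32 differed at an adjusted p under 0.05, 13 higher and 6 lower in PKD, where 49.1% of the 13961 genes tested differed, 24.1% higher and 25% lower. The median log2 fold change was 0.23 over the 32 genes and -0.01 over all genes tested. The balance of higher and lower genes depended on the wildtype libraries used and is given below for each set. All 12 PKD kidneys lay above all 8 wildtype kidneys for 3 genes, *Cyp4a12b*, *Cyp2d26* and *Cyp4v3*, and below them for 0 genes, where 5.21% and 2.07% of all genes were separated in these directions (7.28% in either).

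Against the 5 R libraries alone 22 of the 32 genes differed (background 59.6%), and against the other 3 alone 16 differed (background 40.8%). Of the 22, all but *Cyp2d12*, *Cyp2j7*, *Cyp46a1* and *Cyp4f13* were higher in PKD, while most of the 16 were lower. Over all genes, 4278 were higher and 4019 lower against the R libraries, and 2900 and 2760 against the others. In the same direction against both sets 10 genes differed (background 19.6%). Of these, *Cyp1b1*, *Cyp2a5*, *Cyp2d26*, *Cyp4a12b*, *Cyp4f16*, *Cyp4f18* and *Cyp4v3* were higher in PKD, and *Cyp2d12*, *Cyp46a1* and *Cyp4f13* were lower. *Cyp4f18* passed the filter of the fit through kidneys of the PKD groups, which favours its call. A further 9 genes differed only against the R libraries (background 33.6%), 3 only against the other 3 (14.9%), and 7 against neither (25.6%). The remaining 3 genes, *Cyp4b1*, *Cyp2j5* and *Cyp4a31*, were higher in PKD against the R libraries and lower against the others, where 6.3% of all genes had opposite directions. The backgrounds of 59.6% and 40.8% are shares of 13923 and 13883 genes tested. The others in this paragraph are shares of the 13844 genes tested with both sets and with all wildtype libraries.

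**Figure D2:**
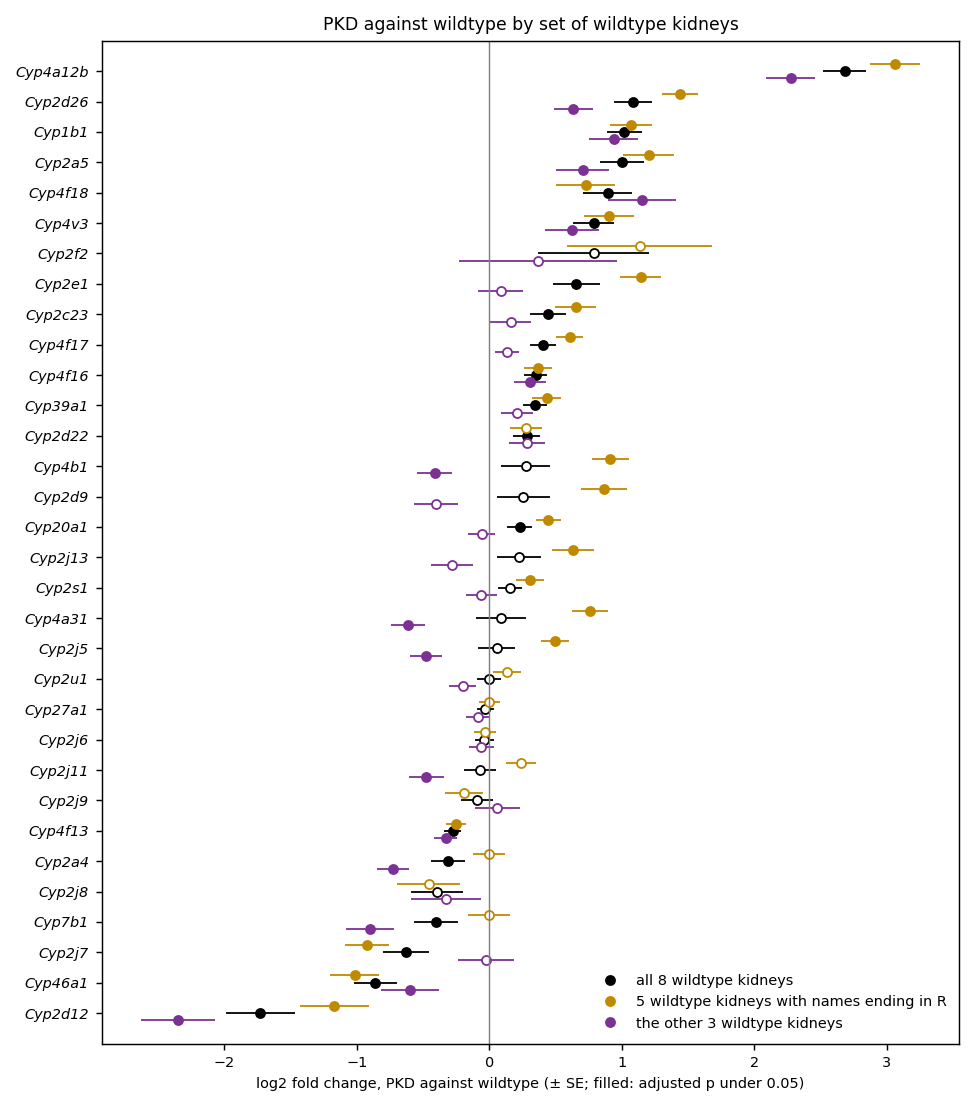
Log2 fold change ± SE of PKD (n = 12) against all 8 wildtype kidneys (black), the 5 with library names ending in R (ochre) and the other 3 (purple), for the 32 genes tested, with filled points for an adjusted p under 0.05. *Cyp4a12b* has the highest value against every set (2.68, 3.07 and 2.28), and *Cyp4b1*, *Cyp4a31* and *Cyp2j5* have filled points on both sides of 0.

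The Cyp4a subfamily, whose enzymes hydroxylate fatty acids at the end of the chain, held the member with the largest rise. *Cyp4a12b* (ENSMUSG00000078597, chr4:115268820-115296235, plus strand) is a close copy of the arachidonic acid hydroxylase gene *Cyp4a12a*. Its level was 2.05 to 6.81 CPM in wildtype (median 4.63), 20.7 to 44.5 in PKD (median 28.1) and 31.6 to 50.3 in PKD + Salsalate kidneys (median 38.9). Every kidney of either PKD group lay above every wildtype kidney. PKD kidneys were higher than wildtype by 2.68 ± 0.16 on the log2 scale (SE, adjusted p = 2.35e-14), a 6.42-fold difference. Reads of *Cyp4a12b* are shared with its copy to a degree that makes the split between them uncertain: 36.2% of its 100-base windows also occurred in *Cyp4a12a*, and reads with more than 1 place in the genome were not counted. *Cyp4a12a*, left out by the rule, rose as well, by 0.87 (adjusted p = 0.0027), by 1.02 with the R libraries as controls (adjusted p = 0.00146), while the other 3 gave 0.65 (adjusted p = 0.0553).

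*Cyp4a31*, the other Cyp4a gene and per length the more abundant in all groups, showed the wildtype split instead. It was at 63.8 to 135 CPM in the R libraries, at 204 to 304 in the other wildtype libraries and at 133 to 222 in PKD kidneys. PKD kidneys thus lay almost entirely between the wildtype sets. Against the R libraries the log2 fold change was 0.76 ± 0.14 (adjusted p = 1.75e-05). With the other libraries as controls it was -0.61 ± 0.13 (adjusted p = 2.68e-04), and with all 8 it was 0.09 ± 0.19 (adjusted p = 0.72). Its open reading frame was identical to that of *Cyp4a10* at 96.6% of aligned bases.

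*Cyp4b1*, on the minus strand of the same stretch of chromosome 4 (chr4:115476281-115504999), showed the same split. It was at 624 to 1449.9 CPM in the R libraries, 2312 to 3433 in the other wildtype libraries, 1738 to 2706 in PKD and 1884 to 2958 in PKD + Salsalate kidneys. The R libraries lay below all 24 kidneys of the PKD groups, while the other 3 overlapped with them. For PKD the log2 fold change was 0.91 ± 0.14 with the R libraries as controls (adjusted p = 2.18e-06). With the other 3 it was -0.41 ± 0.13 (adjusted p = 0.0137).

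Among the Cyp4f genes, hydroxylases of fatty acids and leukotrienes, 3 of the 4 tested rose in PKD and 1 fell. *Cyp4f18*, best known from neutrophils, was at 1.21 to 2.84 CPM in wildtype (median 1.57) and at 2.13 to 4.67 in PKD kidneys (median 3.26), with a log2 fold change of 0.89 ± 0.19 (adjusted p = 2.00e-04). Its groups overlapped only between 2.13 and 2.84 CPM. Its wildtype median lay below the filter of the fit, which the gene passed through kidneys of the PKD groups. The filter therefore favours both its p and this separation. The leukocyte markers moved in the same direction, with 108 to 161 CPM over 10 genes in wildtype and 241 to 354 in PKD kidneys, and their part in the *Cyp4f18* level was not tested. *Cyp4f16* rose by 0.35 ± 0.09 and *Cyp4f17* by 0.41 ± 0.10, the latter only against the R libraries when the sets were taken apart. *Cyp4f13*, the most abundant Cyp4f gene per length in wildtype and PKD kidneys, fell from a median of 54.3 CPM (46.1 to 62.1) to 44.6 (36.3 to 49.6), by 0.28 ± 0.07 on the log2 scale (adjusted p = 7.83e-04). The Cyp4f sum was 80.6 ± 9.73 CPM in wildtype and 80.7 ± 6.39 in PKD kidneys.

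*Cyp4v3*, a fatty acid hydroxylase gene on chromosome 8, was at 2.16 to 4.06 CPM in wildtype (median 3.66), at up to 11.3 in PKD (median 5.48) and at 4.01 to 7.10 in PKD + Salsalate kidneys (median 4.74). The highest PKD value was that of kidney 10, and the next was 6.75. All PKD kidneys lay above all wildtype kidneys, with a log2 fold change of 0.79 ± 0.15 (adjusted p = 8.31e-05), and 0.66 ± 0.13 without PKD kidneys 10 and 12. The predicted gene *Gm45753* shares 5.76% of its 100-base windows. *Cyp2u1*, which hydroxylates long-chain fatty acids, was at 5.24 to 9.87 CPM in wildtype and 7.10 to 10.1 in PKD kidneys and did not pass the test (adjusted p = 0.98).

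Of the epoxygenase genes, *Cyp2c23* was the one Cyp2c gene over the level rule. It was at 12.5 to 28.2 CPM in wildtype (median 20.9) and 18.1 to 38.0 in PKD kidneys (median 27.2). It rose by 0.44 ± 0.14 on the log2 scale (adjusted p = 0.00833) with all wildtype libraries, 0.65 ± 0.15 against the R libraries and 0.16 ± 0.15 against the other 3 (adjusted p = 0.41). The rise thus passed the test against the R libraries and not against the others.

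The Cyp2j subfamily was the largest, with 7 genes in a cluster on chromosome 4, and only *Cyp2j7* differed against all wildtype libraries. *Cyp2j5* (chr4:96516753-96552451, minus strand), the most abundant of them per length, was at 440.1 to 593 CPM in the R libraries, 904 to 1075 in the other wildtype libraries and 597 to 925 in PKD kidneys. Again the 12 PKD kidneys lay above every R library, and 11 of the 12 below every other wildtype library, with kidney 10 as the exception. This gave a log2 fold change of 0.49 ± 0.10 with the R libraries as controls (adjusted p = 1.66e-04). The value was -0.48 ± 0.12 with the others (adjusted p = 0.00188). *Cyp2j13* rose only against the R libraries (0.63 ± 0.16) and *Cyp2j11* fell only against the others (-0.47 ± 0.13). *Cyp2j7* was one of the 2 genes with the R libraries higher, at 9.75 to 16.0 CPM in them, 5.33 to 8.02 in the other wildtype libraries and 4.95 to 9.28 in PKD kidneys. Its log2 fold change was -0.63 ± 0.17 against all wildtype libraries (adjusted p = 0.00329) and -0.02 ± 0.21 against the other 3. *Cyp2j6*, *Cyp2j8* and *Cyp2j9* did not pass the test against either set.

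The Cyp2d genes, whose enzymes act on steroids and drugs, moved apart. *Cyp2d26* (chr15:82674300-82678509, minus strand), the most abundant per length in PKD kidneys, was at 46.9 to 108 CPM in wildtype (median 74.3), at 121 to 209.9 in PKD (median 164) and at 143 to 284 in PKD + Salsalate kidneys (median 183). No PKD kidney reached down to the wildtype range. *Cyp2d26* rose by 1.09 ± 0.14 on the log2 scale (adjusted p = 1.41e-07), 1.44 ± 0.14 against the R libraries and 0.64 ± 0.15 against the others. *Cyp2d12* (chr15:82439246-82444604, plus strand) had the largest fall of the 32 genes. Its level was 50.1 to 140.0 CPM in the R libraries, 177 to 269 in the other wildtype libraries, 26.4 to 67.1 in PKD (median 36.3) and 18.8 to 107 in PKD + Salsalate kidneys (median 40.6). The PKD range reached only the lowest of the R libraries and none of the other wildtype libraries. Its log2 fold change was -1.73 ± 0.26 (adjusted p = 1.54e-06), a 3.31-fold lower level, and it was -1.17 ± 0.26 and -2.35 ± 0.28 against the 2 wildtype sets. *Cyp2d22* rose by 0.28 ± 0.10 against all wildtype libraries (adjusted p = 0.0203) and missed the threshold against each set alone. *Cyp2d9*, a testosterone hydroxylase of male mice with an open reading frame 92.1% identical to that of *Cyp2d12*, was at 71.0 to 295 CPM in wildtype and 134 to 259.8 in PKD kidneys and passed the test only against the R libraries (0.86 ± 0.17). With the 4 genes summed, the R libraries lay at 231 to 413 CPM, the other wildtype libraries at 547 to 705 and the PKD kidneys at 346 to 541.

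The Cyp2a pair drew together in level, from 291 and 112 CPM per kb in wildtype to 234 and 225 in PKD kidneys. *Cyp2a5* was at 127 to 317 CPM in wildtype (median 242), at 216 to 592 in PKD (median 489) and at 326 to 662 in PKD + Salsalate kidneys (median 494). Of the 12 PKD kidneys, 11 lay above the wildtype median. *Cyp2a5* rose by 1.00 ± 0.17 on the log2 scale (adjusted p = 7.99e-06), and its level was 2.30-fold and 1.63-fold that of the R libraries and of the others. *Cyp2a4* was at 306 to 755 CPM in wildtype (median 489), 296 to 499 in PKD (median 413) and 262 to 442 in PKD + Salsalate kidneys (median 356). It fell by 0.31 ± 0.13 on the log2 scale (adjusted p = 0.0407), with -0.00 ± 0.12 against the R libraries and -0.73 ± 0.12 against the other 3. The call was lost with upper-quartile scaling (adjusted p = 0.0579), no filter (0.0944), a fit of the 2 groups alone (0.0664) and a replicate block (0.118), and without wildtype kidney 7 the value was -0.21 (adjusted p = 0.151). Reads of the pair that fit both genes were not counted, so the levels rest on the stretches in which the genes differ, and the sum of the pair was 738 ± 230 CPM in wildtype and 873 ± 135 in PKD kidneys.

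**Figure D3:**
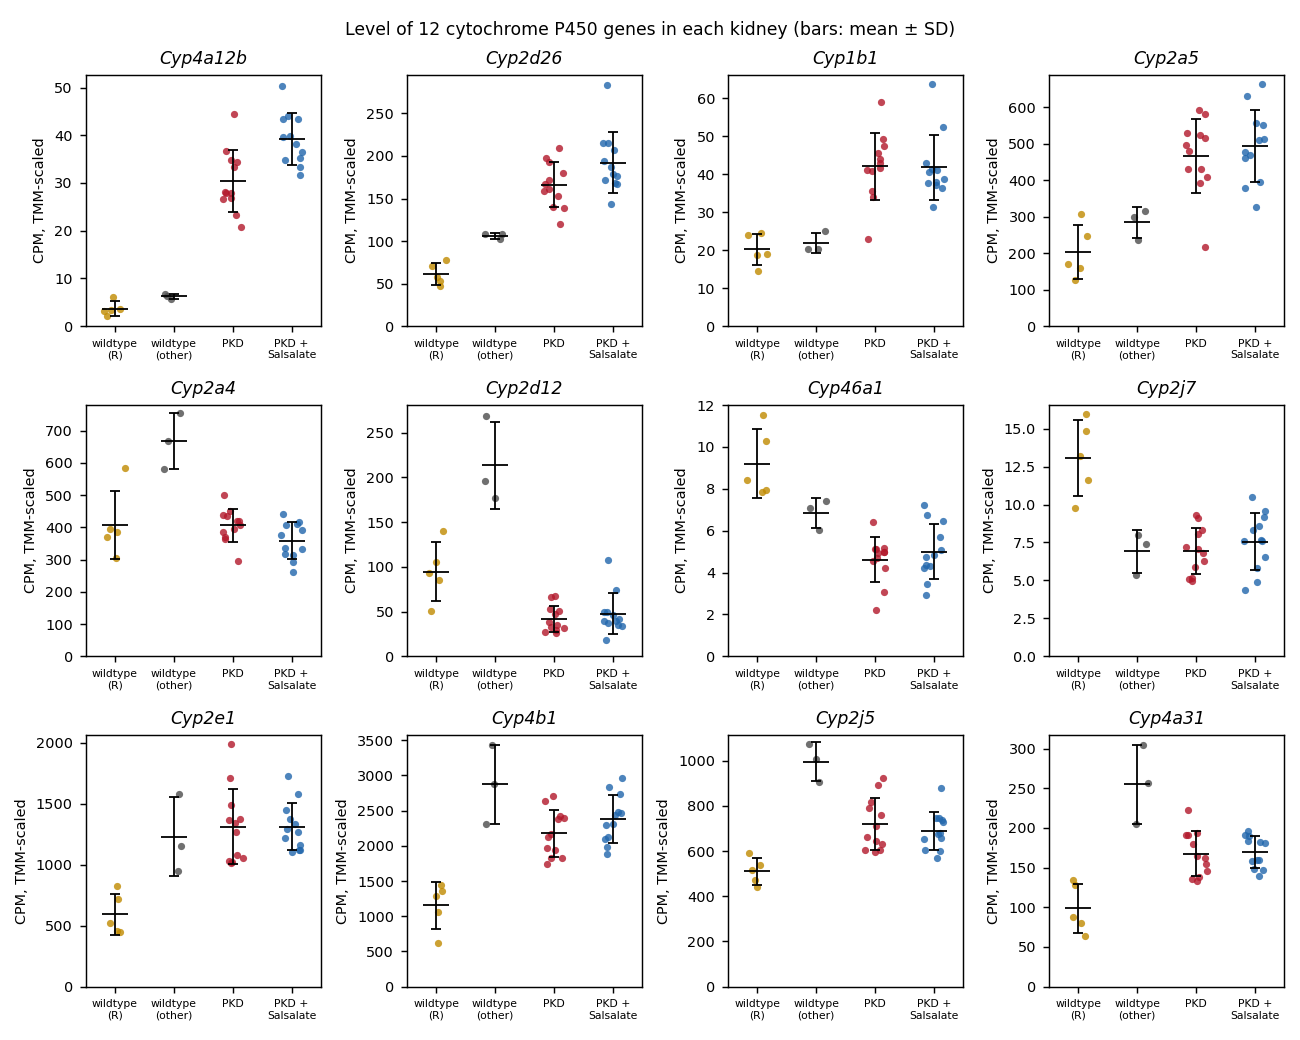
TMM-scaled CPM of 12 P450 genes in each kidney, as points with mean ± SD, for the 5 wildtype libraries with names ending in R, the other 3 wildtype libraries, PKD (n = 12) and PKD + Salsalate (n = 12). *Cyp4a12b*, *Cyp2d26*, *Cyp1b1* and *Cyp2a5* are higher in PKD than in both wildtype sets, while for *Cyp4b1*, *Cyp2j5* and *Cyp4a31* the PKD means lie between those of the sets.

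*Cyp1b1* (chr17:80008966-80022532, minus strand) was at 14.7 to 25.1 CPM in wildtype (median 20.4), at 22.9 to 59.1 in PKD (median 42.3) and at 31.4 to 63.8 in PKD + Salsalate kidneys (median 39.6). All but the lowest PKD kidney lay above every wildtype kidney. Its rise was 1.02 ± 0.13 on the log2 scale (adjusted p = 9.67e-08), with 1.07 ± 0.16 and 0.94 ± 0.19 against the wildtype sets. Of the other target genes of the aryl hydrocarbon receptor, *Tiparp* and *Nqo1* were tested and did not pass the test against all 8 wildtype libraries (log2 fold changes -0.17 and -0.11), and 0 of 32 kidneys had *Cyp1a1*, the best known target, over 1 CPM. The fibroblast markers rose in 7 of 7 genes, where 24.1% of all genes rose. They summed to 353 to 521 CPM in wildtype and 819 to 1361 in PKD kidneys, and their part in the *Cyp1b1* level was not tested.

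*Cyp2e1* was at 445 to 824 CPM in the R libraries, 947 to 1581 in the other wildtype libraries, 1015 to 1985 in PKD and 1104 to 1729.5 in PKD + Salsalate kidneys. The R libraries lay below all others. In PKD kidneys the log2 fold change was 0.66 ± 0.18 (adjusted p = 0.00267), 1.14 ± 0.16 against the R libraries and 0.09 ± 0.17 against the others (adjusted p = 0.71). *Cyp2s1* and *Cyp20a1*, the latter an enzyme of unknown function, likewise passed the test only against the R libraries when the sets were taken apart.

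Among the sterol hydroxylases, *Cyp46a1*, which turns over cholesterol in neurons, was at 6.03 to 11.6 CPM in wildtype (median 7.90), 2.21 to 6.41 in PKD (median 4.95) and 2.91 to 7.25 in PKD + Salsalate kidneys (median 4.79). No PKD kidney reached the wildtype median. *Cyp46a1* had a log2 fold change of -0.86 ± 0.16 (adjusted p = 5.01e-05), with -1.02 ± 0.18 and -0.60 ± 0.22 against the wildtype sets. *Cyp7b1*, an oxysterol hydroxylase, was at 73.6 to 226 CPM in wildtype (median 115) and 66.1 to 130.4 in PKD kidneys (median 98.3). It fell by 0.40 ± 0.17 on the log2 scale (adjusted p = 0.0439), with -0.00 ± 0.16 against the R libraries and -0.90 ± 0.18 against the others. This call too was lost with upper-quartile scaling (adjusted p = 0.0552), no filter (0.0868), the 2 groups alone (0.0515) and the replicate block (0.114), and without wildtype kidney 7, its highest, the value was -0.23 (adjusted p = 0.207). *Cyp39a1*, another oxysterol hydroxylase, rose by 0.34 ± 0.09 (adjusted p = 0.00187), with 0.43 ± 0.11 against the R libraries (adjusted p = 9.19e-04). The other 3 libraries as controls gave 0.21 ± 0.12 (adjusted p = 0.158). *Cyp27a1*, the mitochondrial sterol hydroxylase of bile acid synthesis, was at 63.2 to 85.1 CPM in wildtype and 57.1 to 84.6 in PKD kidneys, with a log2 fold change of -0.03 ± 0.07 (adjusted p = 0.73).

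In PKD + Salsalate kidneys 18 of the 32 genes differed from wildtype, 11 higher and 7 lower (background 44.9%, of which 21.8% higher and 23.2% lower). The count was 26 against the R libraries (background 58%) and 13 against the other 3 (background 34.9%). All 12 lay above every wildtype kidney for 4 genes, *Cyp1b1*, *Cyp2a5*, *Cyp2d26* and *Cyp4a12b*, and below for 0, where 4.46% and 1.93% of all genes were separated in these directions (6.39% in either). Of the 18 genes, 16 differed in the same direction in PKD kidneys. Both comparisons share their wildtype kidneys, and the matching share of all genes is not given here, so this count has no background. *Cyp2j6* and *Cyp2j8* differed from wildtype only in PKD + Salsalate kidneys, with log2 fold changes of -0.22 ± 0.07 and -0.58 ± 0.20 there against -0.04 ± 0.07 and -0.39 ± 0.19 in PKD kidneys. The difference between the PKD groups themselves is the test of such a pattern and is given next.

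PKD + Salsalate and PKD kidneys were compared to see whether 2 weeks of salsalate moved the P450 genes. By edgeR's quasi-likelihood test 0 of the 32 genes differed, where 0.58% of all genes did (0.251% higher and 0.329% lower). With only the R libraries or only the others as the wildtype group of the shared fit, 0 and 1 of the 32 differed, where 1.04% and 1.85% of all genes did. The DESeq2 Wald test also gave 0 genes. An unadjusted p under 0.05 was found for 5 genes by edgeR and 4 by DESeq2. The share of all genes at that level is not given here, so these counts have no background. The log2 fold change was above 0 for 18 genes and below 0 for 14, with a median of 0.02 (-0.01 over all genes tested). For 26 of the 32 genes the 95% interval of the difference lay within 0.5 on the log2 scale on either side of 0. The intervals that reached beyond this limit were those of *Cyp2d12*, *Cyp2f2*, *Cyp2j8*, *Cyp4a12b*, *Cyp4f18* and *Cyp4v3*. No gene had groups that did not overlap, where 0.0287% of all genes did (0.0215% higher and 0.00716% lower).

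*Cyp4a12b* had the largest positive value of the 32 genes, 0.36 ± 0.12 (95% interval 0.12 to 0.61, p = 0.0053 and adjusted p = 0.184 by edgeR's test). This was the 1 gene that passed the threshold in the fit with only the wildtype libraries without the R (adjusted p = 0.0375). All 12 PKD + Salsalate kidneys lay above the PKD median of 28.1 CPM, and the groups overlapped between 31.6 and 44.5 CPM. *Cyp2j6* followed with -0.18 ± 0.06 (p = 0.0060, adjusted p = 0.20): it was at up to 47.6 CPM with salsalate (median 42.5) and 36.5 to 63.2 without (median 47.8), and 0 of the 12 treated kidneys lay above the PKD median. *Cyp2d22* had 0.21 ± 0.09 (p = 0.024), with 10 of 12 treated kidneys above the PKD median, and *Cyp4v3* had -0.27 ± 0.13 (p = 0.049 by edgeR). Without PKD kidney 10, its highest, *Cyp4v3* had -0.15 ± 0.11 (p = 0.168 by edgeR). *Cyp2f2*, an enzyme of lung and liver that oxidizes naphthalene, had the value farthest from 0, -0.84 ± 0.37 (p = 0.028). It was at 1.25 to 2.79 CPM in the PKD kidneys other than kidney 10, at 24.0 in kidney 10 and at 1.47 to 2.60 with salsalate, and without kidneys 10 and 12 its log2 fold change was 0.03 ± 0.16. For *Cyp1b1* and *Cyp2e1* the intervals were -0.24 to 0.21 and -0.32 to 0.32.

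**Figure D4:**
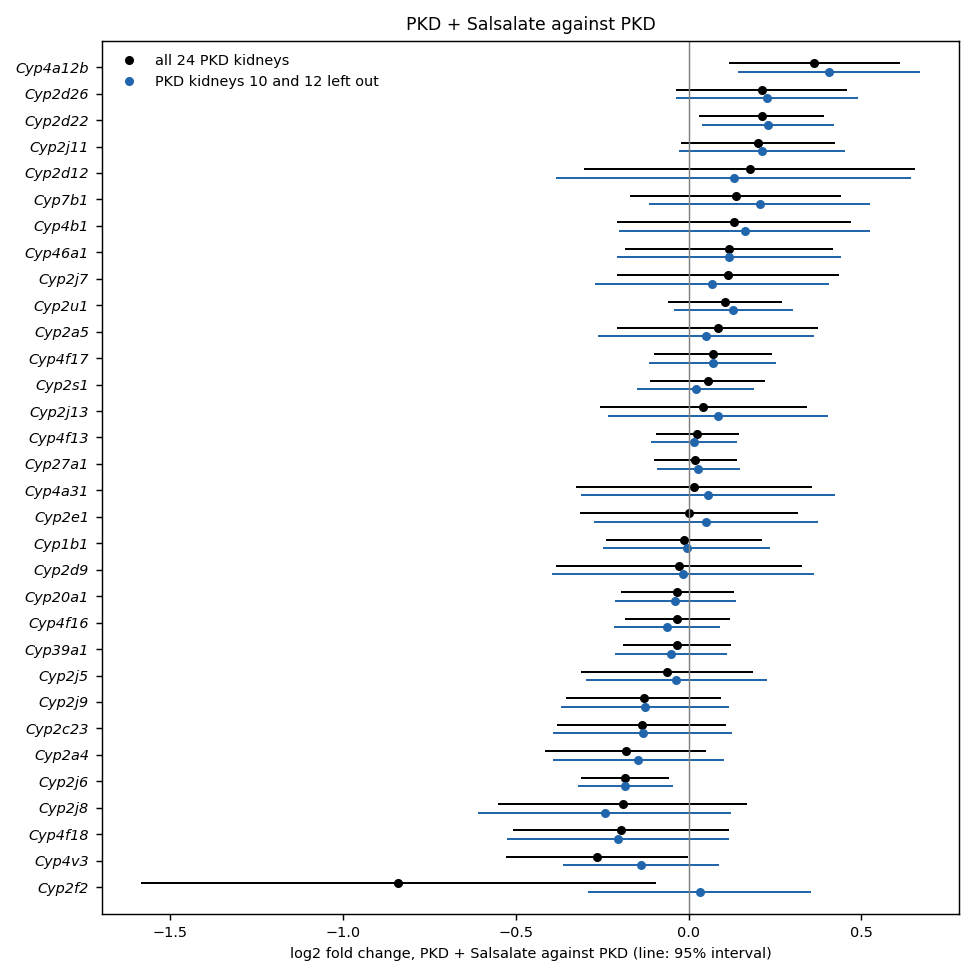
Log2 fold change of PKD + Salsalate (n = 12) against PKD for the 32 genes tested, with 95% intervals as lines, for all PKD kidneys (n = 12, black) and without PKD kidneys 10 and 12 (blue). *Cyp4a12b* is at the top with 0.36, and *Cyp2f2* at the bottom moves from -0.84 to 0.03 when both kidneys are left out.

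Of the 7 P450 genes left out by name, all were tested and *Cyp4a14* alone differed between PKD + Salsalate and PKD kidneys, where 0.58% of all genes did. It had a log2 fold change of 1.75 (adjusted p = 0.0154 by edgeR's test) and medians of 149 and 38.3 CPM. Against wildtype 4 of the 7 rose in PKD and 1 fell, where 24.1% of all genes rose and 25% fell. There were 5 higher and 1 lower against the R libraries (background 59.6% in either direction). Against the others 2 were higher and 1 lower (background 40.8%).

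The 4 genes that passed the level rule but not the filter of the fit were all near 1 CPM. *Cyp3a13*, of the drug-metabolizing Cyp3a subfamily, was at 0.228 to 0.653 CPM in wildtype and 0.520 to 1.40 with salsalate. It was at 0.972 to 1.42 CPM in the PKD kidneys other than kidney 10 and at 11.2 in kidney 10. Every PKD kidney lay above every wildtype kidney, as for 5.21% of all genes tested. The gene passed the level rule through kidneys of the PKD groups alone, which favours this separation. *Cyp2r1*, which carries out the first hydroxylation that activates vitamin D, was at 0.431 to 1.14 CPM in wildtype, 0.692 to 2.05 in PKD and 0.702 to 1.62 in PKD + Salsalate kidneys. *Cyp4f14* was at 0.345 to 2.92, 1.02 to 4.89 and 1.17 to 2.12 CPM in the same groups, and *Cyp4f15* at 0.568 to 4.38, 0.681 to 14.4 and 0.432 to 2.39. No test is given for these 4 genes, since a filter at 1 CPM would keep such genes through the kidneys in which they are high. The highest values of *Cyp3a13* and *Cyp4f15* were both those of PKD kidney 10.

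Most P450 genes below the level rule that exceeded 1 CPM anywhere did so in PKD kidney 10 or 12. Of the 58 genes below the level rule, 34 were over 1 CPM in no kidney, and 22 were over 1 CPM in exactly 1 kidney. That kidney was PKD 10 for 18 of them and PKD 12 for 3. Given as CPM without TMM scaling, in PKD 10 the drug-metabolizing enzyme *Cyp3a11* reached 27.6 CPM (next kidney 0.333), and *Cyp7a1*, the first enzyme of bile acid synthesis, 1.14 CPM (next kidney 0.0740). In PKD 12 the genes were the steroid synthesis enzymes *Cyp21a1* (21.3 CPM), *Cyp11a1* (12.1) and *Cyp11b1* (8.56). Of the 36 genes described above, 7 had their highest level of all kidneys in PKD 10.

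**Figure D5:**
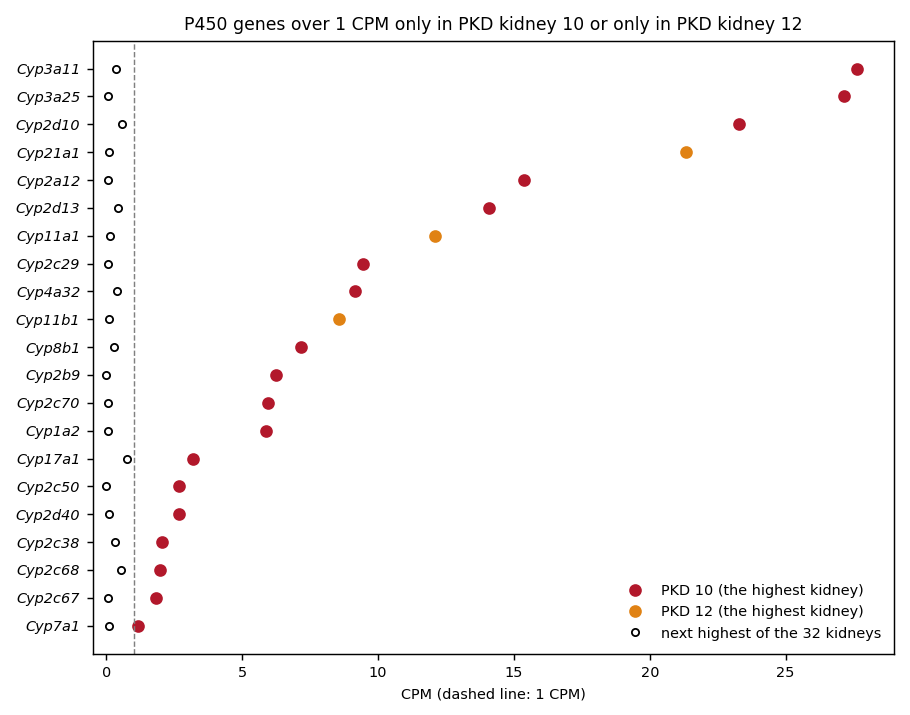
CPM without TMM scaling, on a linear axis, of the 21 P450 genes that exceeded 1 CPM only in PKD kidney 10 (red, 18 genes) or only in PKD kidney 12 (orange, 3 genes), with the next highest of the 32 kidneys as open circles and a dashed line at 1 CPM. All open circles lie below the line.

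Genes that work with P450 enzymes were taken as lists, beside all genes tested, of which 24.1% rose and 25% fell in PKD. Of 9 electron donor genes tested, 1 rose and 3 fell in PKD against wildtype. *Fdxr*, the reductase of the mitochondrial P450 enzymes, fell most, by 0.83 on the log2 scale (adjusted p = 5.0e-07, 30.0 to 60.1 CPM in wildtype and 19.6 to 34.0 in PKD kidneys), and *Por*, the microsomal P450 reductase, fell by 0.36 (adjusted p = 0.028). Of 12 genes of heme synthesis and breakdown 2 rose and 7 fell, among them the heme oxygenase gene *Hmox1*, which rose by 0.72 (adjusted p = 0.0016), and *Cpox*, a heme synthesis enzyme, which fell by 0.52 (adjusted p = 3.9e-04). Of 14 receptors and transcription factors that control P450 genes 2 rose and 6 fell, with the largest changes for *Nr1h3* (-0.51, adjusted p = 2.8e-06), the liver X receptor alpha, and *Rxrb* (-0.49, adjusted p = 1.3e-07), a retinoid X receptor. The epoxide hydrolases (2 genes tested), the other aryl hydrocarbon receptor targets (2) and the androgen-responsive kidney genes (4) had no gene past the threshold by edgeR's test, and their lowest adjusted p was 0.298, 0.124 and 0.0709. The median log2 fold changes of the first 3 lists were -0.07, -0.19 and -0.14, beside -0.01 over all genes. Against the R libraries alone the electron donors had 3 genes higher and 2 lower, the heme genes 3 and 4, and the receptors and factors 3 and 6. With the other libraries alone the same lists had 0 higher and 5 lower, 0 and 5, and 1 and 7. Of all genes, 59.6% differed against the R libraries and 40.8% against the others. *Fdxr*, *Cpox*, *Nr1h3* and *Rxrb* were lower against both sets. *Por* had -0.04 with the R libraries as controls (adjusted p = 0.797) and -0.78 with the other 3 (adjusted p = 8.31e-05), and *Hmox1* had 0.88 (adjusted p = 0.00106) and 0.48 (adjusted p = 0.138). In the last 3 lists *Ephx2*, *Nqo1* and *Slco1a1* were lower against the other libraries, and *Gusb* was higher against the R libraries. Between PKD + Salsalate and PKD no gene of these 6 lists passed the threshold, where 0.58% of all genes did. The lowest adjusted p in these lists by edgeR's test was 0.234, for *Nr1h3*.

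Markers of the kidney's cell types were counted in the same way, beside 24.1% of all genes higher and 25% lower in PKD. Of 15 proximal tubule markers 3 rose and 4 fell in PKD, of 11 markers of loop, distal tubule and collecting duct 0 rose and 6 fell, and of 5 endothelial markers 2 rose and 1 fell. All 6 leukocyte markers tested of 10, all 7 fibroblast markers and all 6 tubular injury markers rose. Of 8 hepatocyte markers tested 6 were higher, and of 3 adrenal cortex markers 1, while no adrenal medulla marker passed the filter. The sum over 14 hepatocyte markers had a median of 93.5 CPM in PKD and 116 in wildtype kidneys, and its PKD maximum, 4936 CPM, was kidney 10. Over 6 cortex markers the medians were 8.67 and 9.51 CPM, and the PKD maximum, 69.9 CPM, was kidney 12. Against the R libraries alone 10 proximal tubule markers were higher and 2 lower, and against the others 1 was higher and 9 lower. The markers of loop, distal tubule and collecting duct likewise had 4 higher and 6 lower against the R libraries, and 0 and 9 against the others. The endothelial markers had 2 higher and 2 lower, and 3 and 1. Over all genes, 59.6% differed against the R libraries and 40.8% against the others. The leukocyte and injury markers were all higher against either set. Of the 7 fibroblast markers 6 were higher against each set, all but *Dcn* against the R libraries and all but *Pdgfra* against the others. Hepatocyte markers were higher in 4 and in 2, and adrenal cortex markers in 0 against each set. With salsalate 2 hepatocyte markers were lower than in PKD kidneys, *Alb* (-5.96, adjusted p = 0.015) and *Apoc3* (-1.17, adjusted p = 0.049), and *Alb* was at 1930 CPM in PKD kidney 10 and at most 11.4 elsewhere. The summed proximal tubule markers were at 13223 to 17020 CPM in PKD kidneys, above the R libraries for most kidneys and below all of the other wildtype libraries.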

How the data were processed

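The authors trimmed stranded poly(A) RNA-seq reads of kidney tissue with cutadapt 2.10 and aligned them to GRCm39 with STAR 2.7.5a. They counted the reads per gene by strand with HTSeq 0.12.4, and reads with several alignments were not counted. The deposited values are these raw counts, which summed to 11193136 to 109807664 per kidney, so low genes are less precise in shallow libraries. Each library is a different mouse. Groups came from the labels. Gene symbols and positions came from GENCODE on GRCm39 (52610 of 53700 identifiers matched).

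The 13961 genes whose log2 CPM exceeded 1 in 25% or more of the kidneys were scaled by TMM and fitted with edgeR 4.0.16 (R 4.3.3), all 3 groups together, by the quasi-likelihood F-test with Benjamini-Hochberg adjustment over all genes and a threshold of 0.05. Which edgeR test the authors used is not given in the sources used here. SE is the log2 fold change divided by the root of F. DESeq2 1.42.0, other scalings and filters, fits of only the groups compared, a replicate block, each wildtype set and each kidney left out were alternatives. Leaving out PKD kidneys 10 and 12, alone or with the CPM filter, was chosen after seeing the data. The fit was tested on simulated data.

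The members and the gene lists were chosen with earlier results of these data known. Genes were named by rule: the 6 called members with the highest and the 6 with the lowest change between PKD and wildtype, the most abundant member per kb of each subfamily, members that failed the filter, and list genes among the 2 most changed of their list or called with salsalate. Other genes named were chosen after their values were seen.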

Additional observations from a re-analysis of the deposited data

Results flagged for a closer look

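*Cyp2r1*, the vitamin D hydroxylase gene, was at 1.14 CPM in wildtype kidney 7, while the next of the 8 wildtype kidneys was at 0.726 CPM. The gap was 0.586 of the group's range, beyond Dixon's 95% limit of 0.526 for 8 values. Chance alone marks about 1 in 20 groups in this way.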

How the results depend on the processing

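PKD against wildtype gave 15 to 22 called P450 genes under all alternatives, beside 19. The replicate block gave 15, where 5839 of all 13961 genes were called, and the R libraries alone gave 22, where 59.6% of all genes were called. Taking only the wildtype libraries without the R gave 1 called gene for salsalate, *Cyp4a12b*, and wildtype sums of 609.8 CPM for Cyp2d, 1467 for Cyp2j and 261 for Cyp4a. In that setting log2 fold changes turned for *Cyp20a1* (-0.057), *Cyp2d9* (-0.40), *Cyp2j13* (-0.28), *Cyp2j5* (-0.48), *Cyp2j9* (0.062), *Cyp2s1* (-0.059), *Cyp4a31* (-0.61) and *Cyp4b1* (-0.41), and with the R libraries alone for *Cyp27a1* (0.000717), *Cyp2j11* (0.24) and *Cyp2u1* (0.13). *Cyp2u1* also turned with upper-quartile scaling (0.025), no filter (0.0099) and the replicate block (0.00748). *Cyp2f2* turned in PKD against wildtype with DESeq2 (-0.065) and without PKD kidneys 10 and 12 (-0.087, and -0.086 with the CPM filter), and for salsalate without both (0.033, and 0.035 with the CPM filter). The cause was not tested.

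With 1 kidney left out, log2 fold changes spanned -0.056 to 0.0058 for *Cyp27a1*, -0.045 (without PKD kidney 10) to 0.95 for *Cyp2f2*, -0.14 to 0.044 for *Cyp2j11*, -0.018 to 0.17 for *Cyp2j5*, -0.076 to 0.039 for *Cyp2u1* and -0.029 to 0.29 for *Cyp4a31*. Counts of called genes spanned 16 to 19 for PKD against wildtype, 0 for salsalate and 17 to 23 for PKD + Salsalate against wildtype. Over all genes tested the same counts spanned 6116 to 7246, 39 to 226 and 5573 to 6867. The other called genes kept their call in all 32 such fits, but *Cyp20a1* did in 21, *Cyp2a4* in 23, *Cyp7b1* in 22 and *Cyp2d22* in 31. Their highest adjusted p were 0.107 for *Cyp20a1* and 0.0549 for *Cyp2d22* without wildtype kidney 5, and 0.151 for *Cyp2a4* and 0.207 for *Cyp7b1* without wildtype kidney 7.

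Replicate numbers name different mice and did not pair them: correlations of same-numbered kidneys ran from -0.55 to 0.47 between PKD and wildtype, and 3 of 8 kidneys correlated best with their own number. The replicate block gave 15 called genes for PKD against wildtype, 0 for salsalate and 17 for PKD + Salsalate against wildtype. Of all 13961 genes tested, that fit called 5839, 48 and 5392. Outside the wildtype sets and these fits, *Cyp2a4* and *Cyp7b1* lost their call with 4 alternatives, *Cyp20a1* with DESeq2 (adjusted p = 0.0501), no filter (0.0760), the 2 groups alone (0.103), the replicate block (0.104) and the CPM filter without PKD kidneys 10 and 12 (0.0524), and *Cyp2d22* with the block (0.0535). Genes near 1 CPM are limited by depth.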
